A study of Homo sapiens with 9 samples.

Results

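The levels of 45 genes of the G1/S transition and of DNA replication were followed in Huh7 cells, an established line of human HCC cells, after siRNA-mediated loss of LATS1 or LATS2. The genes were taken by function, by their Entrez numbers, from the 20575 genes of the files. The list was chosen with earlier results of these data known. All 45 genes were among the 12901 genes tested. They fall into 7 roles: 4 genes of origin licensing and initiation, 13 of the MCM helicase and its activators, 6 of the polymerases and primase, 9 of the clamp, its loader, ligation and single-strand binding, 5 of nucleotide supply, 3 of chromatin and 5 regulators of the G1/S step. RNA-seq was done on 9 samples, 3 each from cells transfected with siControl, siLATS1 or siLATS2 and collected 48 h later. All samples came from the same line and the labels name no other agent, whereas the text of the study also speaks of sorafenib, so the groups are called here by their siRNA alone. The study's methods call the samples of a group biological triplicates, while no label says whether they were separate cultures, and the p-values measure the spread between these samples.

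DNA replication is prepared in G1, when the origin recognition complex, CDC6 and CDT1 load the ring-shaped MCM helicase onto origins. Cyclin E with CDK2 frees E2F factors from the retinoblastoma protein, and E2F factors in turn drive transcription of most of the genes described here. CDC45 and the GINS complex then turn the loaded ring into an active helicase, and polymerases with their clamp PCNA copy both strands. The LATS kinases of the Hippo pathway restrain the co-activators YAP and TAZ, which are known to drive proliferation genes. The comparison of the 3 siRNA groups asks whether the replication genes differ once LATS1 or LATS2 is lowered. In a bulk sample, fewer cells in S phase and less RNA of these genes per cell cannot be told apart.

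Promoter sequences are shown because an E2F-type site is the feature these genes are best known to share. RefSeq promoters on GRCh38.p14 were matched to 38 of the 45 genes, and the 250 bases upstream of each transcription start were searched on both strands for the octamers TTTCCCGC, TTTCGCGC, TTTGCCGC and TTTGGCGC, which can overlap one another. At least 1 match was held by 15 of the 38 genes (39.5%). Of 27305 genes with a promoter of the same length 928 held one (3.4%), and of 10282 tested genes 585 did (5.69%). Neither of these sets was matched to the 38 genes for the GC content or the number of promoters per gene. The 15 genes were CDT1, MCM3, MCM6, MCM7, GINS2, POLA1, POLA2, POLE, PCNA, RFC3, LIG1, TYMS, UHRF1, E2F1 and E2F2. MCM6 had the most matches, 4, as 2 pairs that overlap on opposite strands. The sequences below run 5′ to 3′ on the gene's strand and end at the base before the start of transcription, and capitals mark the matches. E2F1, MCM6, RFC3 and CDT1 are shown for their matches, and CCNE1, which had none in this window, because it had the lowest limma p of the 45 genes in the 3 comparisons. No match says only that these letters are not in the window.
E2F1 (chr20:33686386-33686635, minus strand): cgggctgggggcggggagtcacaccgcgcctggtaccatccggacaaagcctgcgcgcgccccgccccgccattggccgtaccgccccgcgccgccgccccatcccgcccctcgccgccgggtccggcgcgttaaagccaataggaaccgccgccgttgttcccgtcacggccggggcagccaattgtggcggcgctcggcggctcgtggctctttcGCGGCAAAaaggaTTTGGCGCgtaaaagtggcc
MCM6 (chr2:135876444-135876693, minus strand): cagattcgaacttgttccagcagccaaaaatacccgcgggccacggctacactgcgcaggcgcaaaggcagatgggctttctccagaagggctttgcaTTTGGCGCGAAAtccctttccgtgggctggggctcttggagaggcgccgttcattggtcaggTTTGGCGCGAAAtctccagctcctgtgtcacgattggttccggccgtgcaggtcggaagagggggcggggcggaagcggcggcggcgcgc
RFC3 (chr13:33817899-33818148, plus strand): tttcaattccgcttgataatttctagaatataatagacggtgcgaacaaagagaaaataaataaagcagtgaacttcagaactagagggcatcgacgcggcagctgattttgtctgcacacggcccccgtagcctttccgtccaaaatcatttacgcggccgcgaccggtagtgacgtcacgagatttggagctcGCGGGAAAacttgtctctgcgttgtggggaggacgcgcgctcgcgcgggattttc
CDT1 (chr16:88803539-88803788, plus strand): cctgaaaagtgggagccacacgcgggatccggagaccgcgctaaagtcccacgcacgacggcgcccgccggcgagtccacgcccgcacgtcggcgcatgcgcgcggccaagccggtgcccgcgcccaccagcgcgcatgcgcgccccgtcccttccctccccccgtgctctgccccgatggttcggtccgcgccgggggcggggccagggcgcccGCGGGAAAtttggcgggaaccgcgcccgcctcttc
CCNE1 (chr19:29811741-29811990, plus strand): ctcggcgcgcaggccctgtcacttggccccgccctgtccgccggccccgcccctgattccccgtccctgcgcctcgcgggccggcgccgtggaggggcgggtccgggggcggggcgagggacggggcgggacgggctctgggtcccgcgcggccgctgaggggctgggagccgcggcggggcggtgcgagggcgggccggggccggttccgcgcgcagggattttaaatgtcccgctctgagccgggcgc

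The knockdown of LATS1 was checked first. LATS1 was at 110.0, 55.2 and 62.9 CPM in siControl replicates 1, 2 and 3, at 27.1, 20.1 and 15.6 CPM in siLATS1, and at 54.7, 78.6 and 51.2 CPM in siLATS2. All siLATS1 samples lay below all other samples, with a log2 fold change of -1.78 ± 0.31 (SE) against siControl (limma, adjusted p = 0.126). LATS2 was not analysed here. CPM give the reads of a gene relative to all reads counted in the sample, and here and below they are divided by the sample's TMM factor, a trimmed mean of M values. Fold changes are on the log2(CPM + 1) scale with an SE from limma. The depth was 23547579 to 32193229 reads per sample, and the lowest count of any of the 45 genes was 56 reads (POLD1 in siControl replicate 1). Huh7 identity was clear in every sample, where all 10 hepatocyte markers were detected at 12348 to 23101 CPM in sum, against 4.66 to 26.7 CPM for 4 fibroblast markers, 1.89 to 12.7 CPM for 3 immune markers and 0.683 to 2.77 CPM for 3 endothelial markers. Of these fibroblast, immune and endothelial markers, CD3E, DCN, VWF and CDH5 were at 0 in at least 1 siControl sample. COL1A1, COL1A2, PDGFRB, PTPRC, CD14 and PECAM1 were above 0 in every sample. COL1A2 was highest in siLATS1 replicate 3, at 22.97 CPM, and CD14 in siControl replicate 3, at 12.13 CPM. The immune and fibroblast sums overlapped between siControl and each siRNA group. The endothelial sum, nearly all of it PECAM1, was 1.77 to 2.77 CPM in siControl, 0.683 to 1.61 CPM in siLATS1 and 1.22 to 1.59 CPM in siLATS2. Their part in the results was not tested.

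The siControl samples did not lie together, which touches every comparison with siControl. Over all tested genes, siControl replicate 1 was at least 2-fold below the mean of replicates 2 and 3 in 23.3% of genes and at least 2-fold above it in 6.96%, on the log2(CPM + 1) scale. Among the 45 replication genes, 10 were at least 2-fold lower in replicate 1 (22.2%) and 2 at least 2-fold higher (4.44%). Leaving this sample out turned the sign of the log2 fold change against siControl in 28 of the 45 genes for siLATS1 and in 30 for siLATS2, and values without it are given beside the fold changes below. LATS1 itself had a log2 fold change of -1.50 for siLATS1 without it.

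In limma, no replication gene passed the threshold of the study's methods in any of the 3 comparisons. The threshold asks for an unadjusted p under 0.05 together with a log2 change of 0.58 or more in either direction, and the study applied it to edgeR. Against siControl the count was 0 of 45 for siLATS1, where 2.91% of all tested genes passed, and 0 of 45 for siLATS2, where 0.271% passed. Between siLATS1 and siLATS2 it was 0 of 45 against 1.86% of tested genes. With edgeR on the recovered reads the count was also 0 of 45 in each comparison, where 3.5%, 0.527% and 2.54% of tested genes passed in the same order. With limma p adjusted over all genes no member passed, against 0.101%, 0.0% and 0.0% of tested genes in the same order. At an unadjusted p under 0.05 and any fold change, limma passed 0, 0 and 1 of the 45 genes, where 5.78%, 0.853% and 3.91% of all tested genes did. On the recovered reads, edgeR passed 3, 0 and 1 genes and DESeq2 1, 0 and 1 at the same unadjusted level, where 5.77%, 0.86% and 4.07% of all tested genes passed in edgeR and 6.92%, 1.05% and 4.97% in DESeq2. A p above the threshold does not show that the levels were equal. The 95% interval of the log2 fold change lay within 0.58 of zero for 20, 22 and 21 of the 45 genes, so a change of that size was not excluded by the interval for the rest. After the correction for GC content described below it lay within that range for 41 of 45 genes in each comparison.

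**Figure D1:**
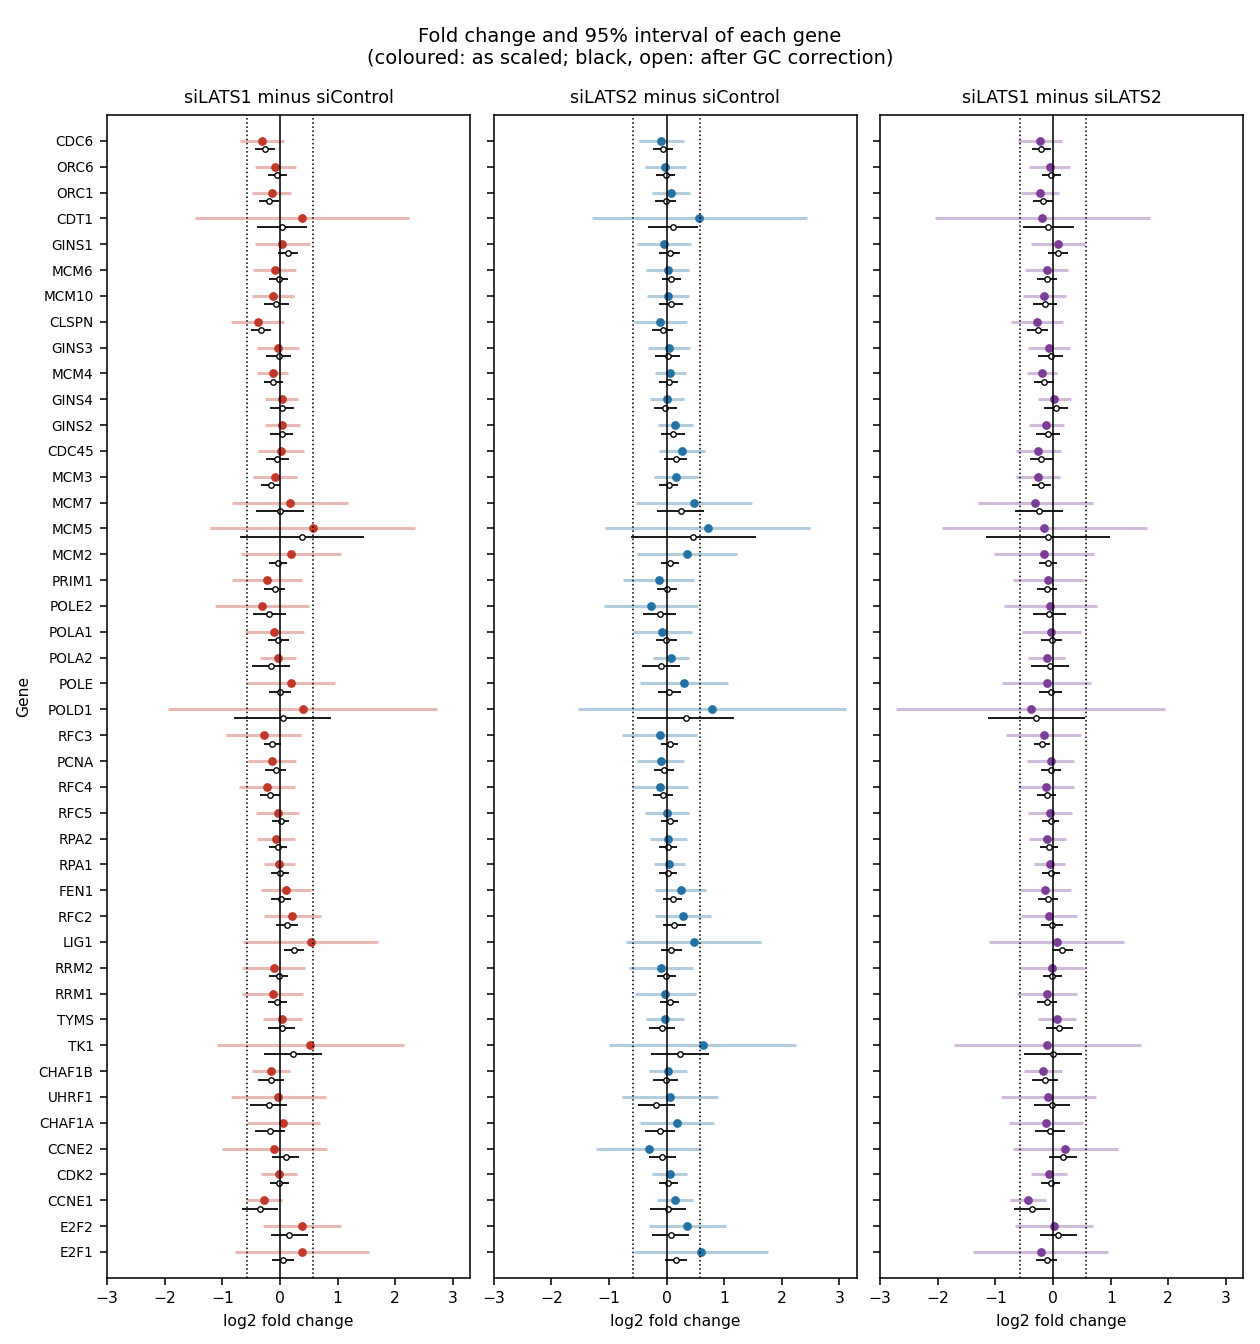
Log2 fold change of 44 of the 45 genes (rows, by role and then by GC content) for siLATS1 against siControl, siLATS2 against siControl and siLATS1 against siLATS2, with the 95% interval of limma as bars. Coloured points are as scaled, black open points are after GC correction, and dotted lines mark a log2 fold change of 0.58 in each direction. The widest intervals belong to POLD1, CDT1, MCM5 and TK1, and most genes lie left of zero in the comparison of siLATS1 with siLATS2.

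The median log2 fold change of the 45 genes was -0.03 for siLATS1 against siControl, where that of all tested genes was 0.02, with 27 genes lower and 18 higher. For siLATS2 against siControl it was 0.05 (all tested genes 0.03), with 15 genes lower and 30 higher. Without siControl replicate 1 the medians were -0.05 for siLATS1 (all tested genes -0.01), with 29 genes lower and 16 higher, and 0.06 for siLATS2 (all tested genes 0.02), with 15 lower and 30 higher. The sign of the first median rested on the scaling, since it was 0.05 without TMM scaling and -0.09 with TMM factors from the tested genes alone. Between siLATS1 and siLATS2 the median was -0.11 (all tested genes -0.03), and 39 of 45 genes (86.7%) were lower in siLATS1, against 57.7% of all tested genes. Without TMM scaling, 29 of 45 genes (64.4%) were lower in siLATS1, against 42.1% of all tested genes. After GC correction the numbers were 39 of 45 and 51.3%. These are counts of signs without a test.

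Cyclin E1 (CCNE1, Entrez 898, chromosome 19, 30302898 to 30315219 on the plus strand of GRCh37) was the gene of the list with the lowest limma p. It is the regulatory partner of CDK2 at the G1/S step. Its level was 21.0, 18.9 and 19.3 CPM in siControl, 15.5, 17.0 and 15.5 CPM in siLATS1, and 22.1, 22.0 and 21.6 CPM in siLATS2. All siLATS1 samples were below all siControl samples, and all siLATS2 samples were above them. The log2 fold change between siLATS1 and siLATS2 was -0.43 ± 0.14 (SE), with a 95% interval from -0.74 to -0.12 and a limma p of 0.013 (adjusted p = 0.757). DESeq2 gave -0.43 for the same difference with an adjusted p of 0.00568, under 0.05 as for 0.907% of tested genes, while limma and edgeR, with all samples weighted alike, gave it no adjusted p under 0.05. Against siControl the log2 fold change was -0.28 ± 0.14 for siLATS1 (adjusted p = 0.979 in limma) and 0.14 ± 0.14 for siLATS2 (adjusted p = 0.950 in limma). The exact permutation test over 3 against 3 samples cannot give a two-sided p under 0.1, which was its value in each of these comparisons. Groups that do not overlap always give that value. Without siControl replicate 1, the values against siControl were -0.25 for siLATS1 and 0.17 for siLATS2. After the GC correction described below they were -0.35 and 0.02 over all samples, and siLATS2 then overlapped siControl. The sign of the difference between siLATS1 and siLATS2 was kept in all 21 alternatives, with values from -0.47 to -0.36.

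The other G1/S regulators did not share this pattern. Cyclin E2 (CCNE2, Entrez 9134), a second partner of CDK2, was at 23.2, 9.32 and 11.5 CPM in siControl, 17.7, 12.8 and 8.88 CPM in siLATS1, and 9.23, 16.7 and 8.10 CPM in siLATS2. These groups overlapped throughout, and the highest sample was siControl replicate 1. CDK2 itself lay between 56.0 and 68.2 CPM in all 9 samples. Exons of CCNE2 overlap those of INTS8 on the opposite strand by 1629 bases, and strand use in counting was not given in the sources used here, so its level is uncertain. E2F1 (Entrez 1869), an activating E2F factor, was at 19.6, 83.4 and 77.9 CPM in siControl, 54.6, 61.4 and 86.0 CPM in siLATS1, and 81.8, 59.3 and 93.8 CPM in siLATS2. Here the lowest sample was siControl replicate 1, and the log2 fold change of siLATS2 against siControl, 0.60 ± 0.51, became -0.08 without that sample. E2F2, a related activator, ran from 8.65 to 22.6 CPM, with siControl replicate 1 lowest again.

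**Figure D2:**
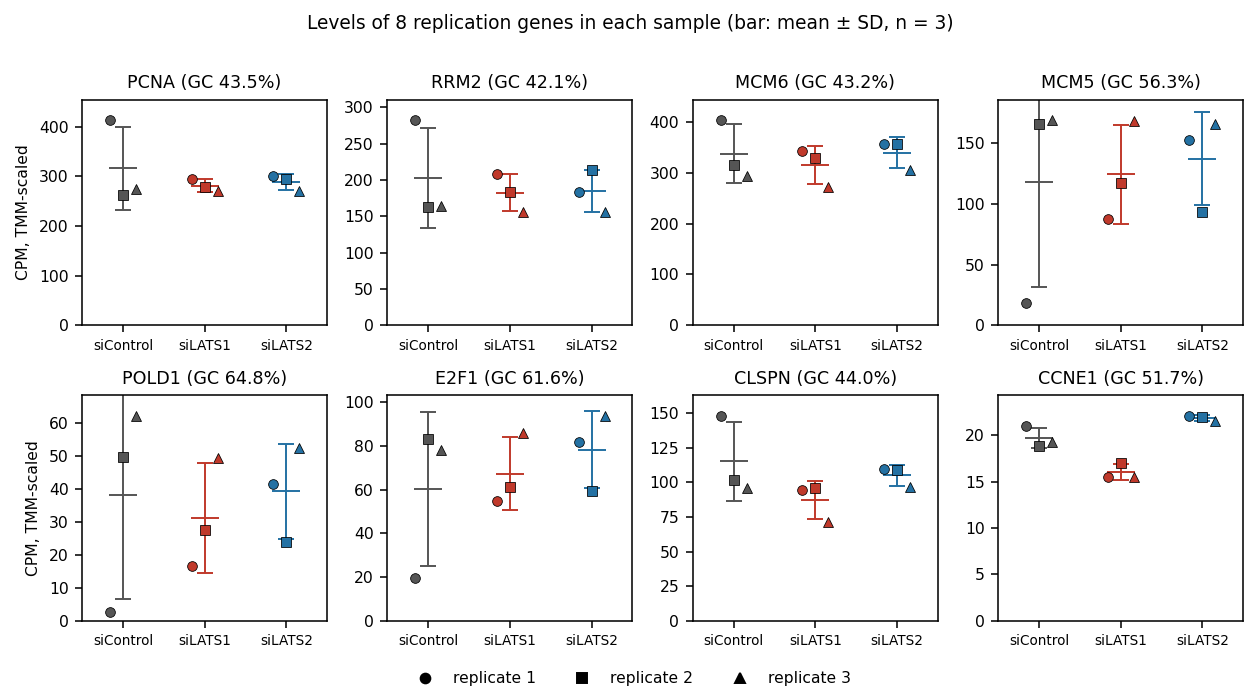
CPM after TMM scaling (y axis, from 0) of PCNA, RRM2, MCM6, MCM5, POLD1, E2F1, CLSPN and CCNE1 in each sample of siControl, siLATS1 and siLATS2. Symbols mark the replicate number and bars the mean ± SD of 3 samples. CCNE1 separates the 3 groups as scaled here, but its siLATS2 samples overlap siControl after GC correction. The siControl bar of MCM5, POLD1 and E2F1 spans most of the range because siControl replicate 1 is at 18.2, 2.46 and 19.6 CPM.

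Of the 4 licensing genes, CDC6 (Entrez 990, chromosome 17, 38444131 to 38460909), the loader of the MCM ring, was at 186.9, 152.3 and 138.4 CPM in siControl. It was at 135.6, 141.9 and 106.0 CPM in siLATS1 and at 143.1, 162.7 and 140.4 CPM in siLATS2. The highest siLATS1 sample lay above the lowest siControl sample, with a log2 fold change of -0.31 ± 0.17 (adjusted p = 0.979 in limma), and -0.21 without siControl replicate 1. CDT1 (Entrez 81620), which brings the MCM ring to the origin and is degraded once S phase starts, was at 3.73, 35.6 and 47.1 CPM in siControl, 17.7, 21.3 and 43.5 CPM in siLATS1, and 32.0, 19.9 and 38.6 CPM in siLATS2. The groups overlapped, and the siControl samples alone spanned a 12.6-fold range. ORC1 and ORC6, subunits of the origin recognition complex, stayed within 51.1 to 68.7 and 44.8 to 61.5 CPM over all samples.

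The MCM ring is a hexamer of MCM2 to MCM7, and its subunits did not move together from sample to sample. MCM2 (Entrez 4171) was at 121.6, 332.8 and 322.0 CPM in siControl, 219.0, 269.5 and 327.1 CPM in siLATS1, and 325.8, 240.8 and 346.9 CPM in siLATS2. MCM6 (Entrez 4175) was at 403.3, 315.5 and 293.5 CPM in siControl, 343.1, 329.8 and 273.0 CPM in siLATS1, and 357.3, 356.9 and 304.6 CPM in siLATS2. In siControl replicate 1, MCM2 was thus at its lowest and MCM6 at its highest of all 9 samples. MCM5 (Entrez 4174, chromosome 22, 35796127 to 35821424), chosen for display after its values were seen, was at 18.2, 166.2 and 169.1 CPM in siControl, 87.9, 117.0 and 168.4 CPM in siLATS1, and 152.5, 93.6 and 166.1 CPM in siLATS2. Its level per kb of transcript relative to that of MCM6 was lowest in siControl replicate 1, at 0.0490, and highest in siLATS1 replicate 3, at 0.670, a 13.7-fold range within genes of a single complex. The same ratio of MCM4 to MCM6 ran from 0.893 to 1.19, a 1.33-fold range. MCM4 (Entrez 4173) was at 389.9, 376.3 and 378.7 CPM in siControl, 369.0, 363.4 and 318.2 CPM in siLATS1, and 428.0, 401.3 and 369.1 CPM in siLATS2, and it was the gene of the list with the second lowest p between siLATS1 and siLATS2 (-0.19 ± 0.12, adjusted p = 1.0 in limma). MCM7 was the most abundant gene per kb, at 330.0 CPM per kb over all samples, and E2F2 the least, at 3.32 CPM per kb.

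Among the helicase activators, CLSPN (Entrez 63967), which encodes the fork protein claspin, had the largest fold change below siControl in siLATS1. It was at 148.3, 102.1 and 95.7 CPM in siControl, 94.3, 95.7 and 71.2 CPM in siLATS1, and 110.0, 108.7 and 96.6 CPM in siLATS2. The siLATS1 samples did not overlap siControl, by a margin of under 0.1 CPM, nor siLATS2. The log2 fold change against siControl was -0.39 ± 0.20 (adjusted p = 0.979 in limma), and -0.21 without siControl replicate 1. CDC45 (Entrez 8318), a subunit of the active helicase, had the lowest p for siLATS2, with 58.3, 81.3 and 82.7 CPM in siControl, 68.0, 76.5 and 77.8 CPM in siLATS1, and 92.2, 78.2 and 95.8 CPM in siLATS2. That log2 fold change was 0.27 ± 0.17 (adjusted p = 0.950 in limma) and fell to 0.09 without siControl replicate 1. The 4 GINS genes lay between a log2 fold change of -0.04 and 0.15 against siControl in both comparisons, and between -0.05 (GINS2 for siLATS1) and 0.20 (GINS1 for siLATS1) without siControl replicate 1.

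Of the polymerases, POLD1 (Entrez 5424, chromosome 19, 50887461 to 50921275), the catalytic subunit of the lagging-strand polymerase and also chosen after its values were seen, varied most. It was at 2.46, 49.7 and 62.1 CPM in siControl, 16.5, 27.5 and 49.2 CPM in siLATS1, and 41.4, 24.0 and 52.5 CPM in siLATS2. Its log2 fold change for siLATS2 against siControl was the highest of the list, 0.78 ± 1.02, and became -0.57 without siControl replicate 1. For siLATS1 it went from 0.39 to -0.96. POLE2 and PRIM1, an accessory subunit of the leading-strand polymerase and the small primase subunit, ran the other way, with their highest levels, 44.3 and 65.0 CPM, in siControl replicate 1. POLA2, a subunit of polymerase alpha, stayed within 34.2 to 42.9 CPM in all samples.

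PCNA (Entrez 5111, chromosome 20, 5095599 to 5107272), the sliding clamp and a widely used marker of S phase, was at 412.5, 261.6 and 274.1 CPM in siControl. It was at 295.0, 277.5 and 269.5 CPM in siLATS1 and at 300.3, 294.8 and 270.3 CPM in siLATS2. The groups overlapped, and the log2 fold changes against siControl were -0.14 ± 0.18 for siLATS1 and -0.10 ± 0.18 for siLATS2 with 95% intervals from -0.55 to 0.27 and from -0.51 to 0.31. Both signs turned without siControl replicate 1, to 0.05 and 0.09. RFC2 (Entrez 5982), a subunit of the clamp loader, had the next lowest p after CDC45 for siLATS2, with 36.0, 66.5 and 54.7 CPM in siControl, 54.5, 61.6 and 61.4 CPM in siLATS1, and 63.0, 59.3 and 64.2 CPM in siLATS2. That log2 fold change was 0.29 ± 0.22 (adjusted p = 0.950 in limma), and 0.03 without siControl replicate 1. DNA ligase 1 (LIG1), which seals Okazaki fragments, had a 4.19-fold range within siControl, whereas RPA1, a subunit of the single-strand binding protein, had one of 1.13-fold.

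For nucleotide supply, RRM2 (Entrez 6241), the S-phase subunit of ribonucleotide reductase, was at 282.2, 162.5 and 163.6 CPM in siControl, 208.2, 183.4 and 156.6 CPM in siLATS1, and 183.7, 214.4 and 156.6 CPM in siLATS2. Its log2 fold changes against siControl were -0.11 ± 0.24 and -0.09 ± 0.24, and 0.14 and 0.15 without siControl replicate 1. TYMS (Entrez 7298), the thymidylate synthase, was at 89.2, 68.5 and 69.0 CPM in siControl, 75.9, 80.8 and 74.9 CPM in siLATS1, and 78.4, 73.6 and 68.4 CPM in siLATS2, with fold changes of 0.04 ± 0.15 and -0.03 ± 0.15, and of 0.15 and 0.08 without that sample. Both genes were highest in siControl replicate 1 and their groups overlapped. TYMS shares 967 exon bases with ENOSF1 on the opposite strand, so its level is uncertain in the same way as that of CCNE2, as to a smaller extent is that of MCM7, with 277 shared bases. In all, 11 of the 45 genes share exon bases with another protein-coding gene. POLD1 shares 426 bases with 1 gene on its own strand, and PRIM1 shares 362 and 139 bases with others on its own strand. Counting by strand would not separate these. Thymidine kinase 1 (TK1), of the salvage route, was lowest there, at 11.9 CPM against 85.2 and 89.5 CPM in the other siControl samples. Of the chromatin genes, UHRF1 (Entrez 29128), which couples maintenance DNA methylation to replication, was at 21.9, 46.7 and 51.4 CPM in siControl, 29.8, 33.2 and 50.6 CPM in siLATS1, and 40.1, 29.6 and 50.5 CPM in siLATS2, with overlapping groups. CHAF1A and CHAF1B encode 2 subunits of the chromatin assembly factor, and they lay at 48.9 to 97.7 and at 24.6 to 30.3 CPM within siControl.

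Groups did not overlap for 3 of the 45 genes between siLATS1 and siControl (MCM4, CLSPN and CCNE1, all lower), where 8.48% of all tested genes did not overlap. Between siLATS2 and siControl it was 1 gene (CCNE1, higher), against 3.51%. Between siLATS1 and siLATS2 there were 7 genes (MCM3, MCM4, CDC45, CLSPN, RPA2, CHAF1B and CCNE1, all lower in siLATS1), which is 15.6% of the list against 12.4% of tested genes.

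**Figure D3:**
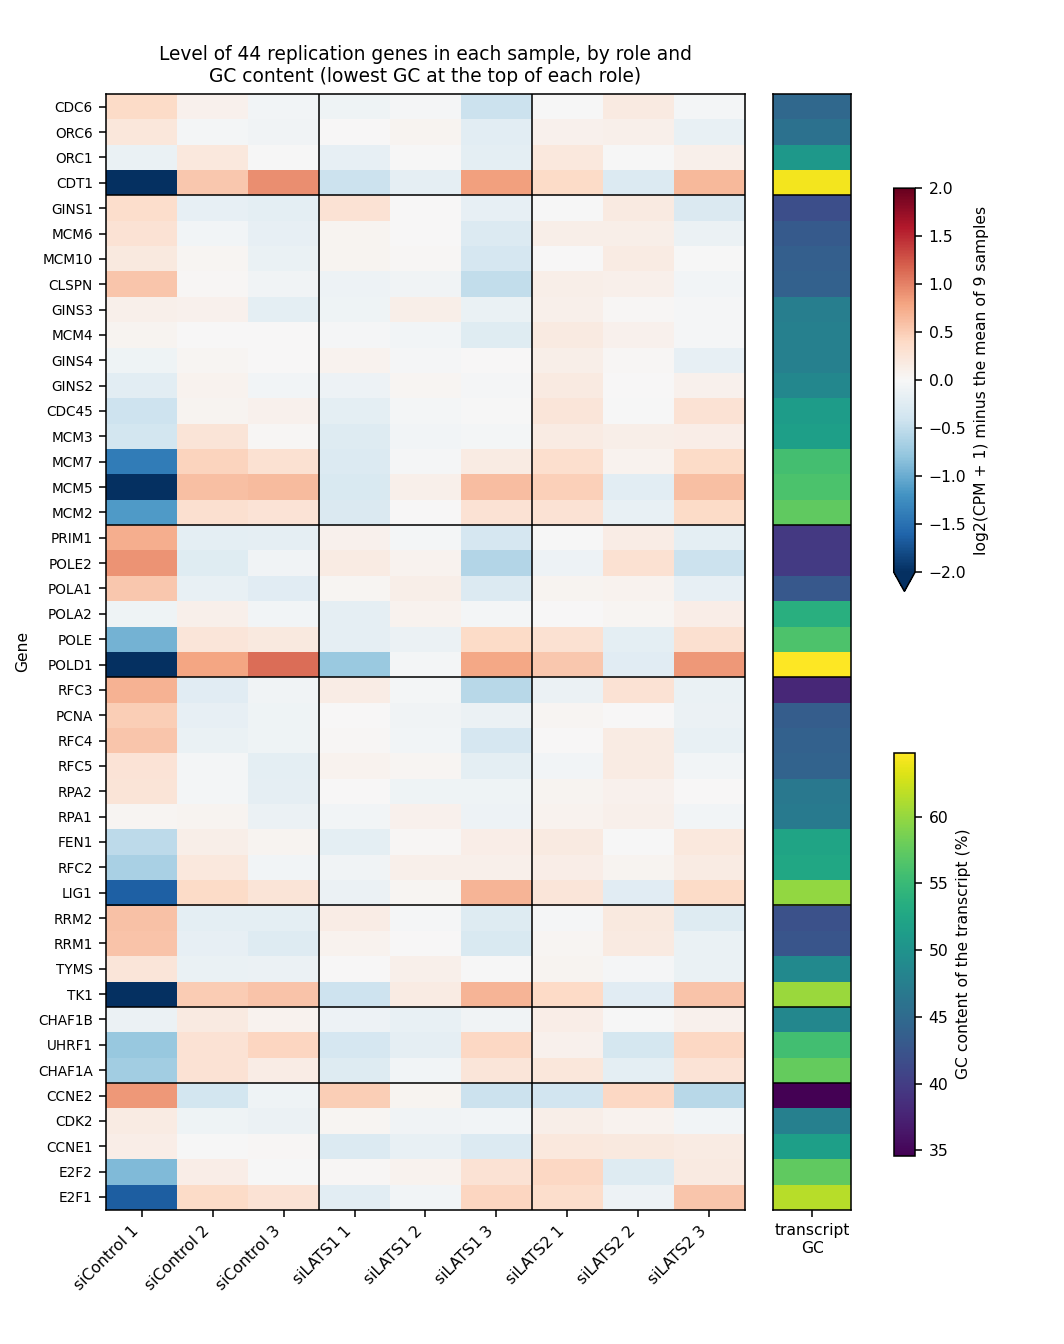
Level of 44 of the 45 genes (rows, grouped by role and ordered by GC content within a role) in each of the 9 samples (columns), as log2(CPM + 1) minus the gene's mean over the samples. The strip on the right gives the GC content of the transcript. In siControl 1 the rows run from red to blue with rising GC content in every role of more than 3 genes, and siLATS1 3 and siLATS2 3 run in the opposite direction.

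What the genes with low and high values in a sample shared was the GC content of their transcripts. It ran from 34.6% (CCNE2) to 64.8% (POLD1) over the 45 genes, with a median of 47.7%, close to that of all tested genes (47.6%). In siControl replicate 1, the difference from the mean of replicates 2 and 3 correlated with GC content with r = -0.92 (Spearman's rho -0.95) across the 45 genes and r = -0.87 across 12522 tested genes. The 10 genes richest in GC (MCM5, POLE, MCM2, E2F2, CHAF1A, LIG1, TK1, E2F1, CDT1 and POLD1) had a median difference of -1.97 on the log2 scale, and the 10 poorest (CCNE2, RFC3, PRIM1, POLE2, GINS1, RRM2, RRM1, POLA1, MCM6 and PCNA) one of 0.79. With the logarithm of transcript length the same difference had r = -0.09. Deviations from the group mean correlated with GC content in every sample, with r from -0.95 in siLATS2 replicate 2 and siLATS1 replicate 1 to 0.95 in siLATS1 replicate 3, and weakest in siLATS1 replicate 2 (-0.61). These correlations are across genes, which share their libraries and are not independent replicates, and the deviations of a group sum to zero. They are given as a description.

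**Figure D4:**
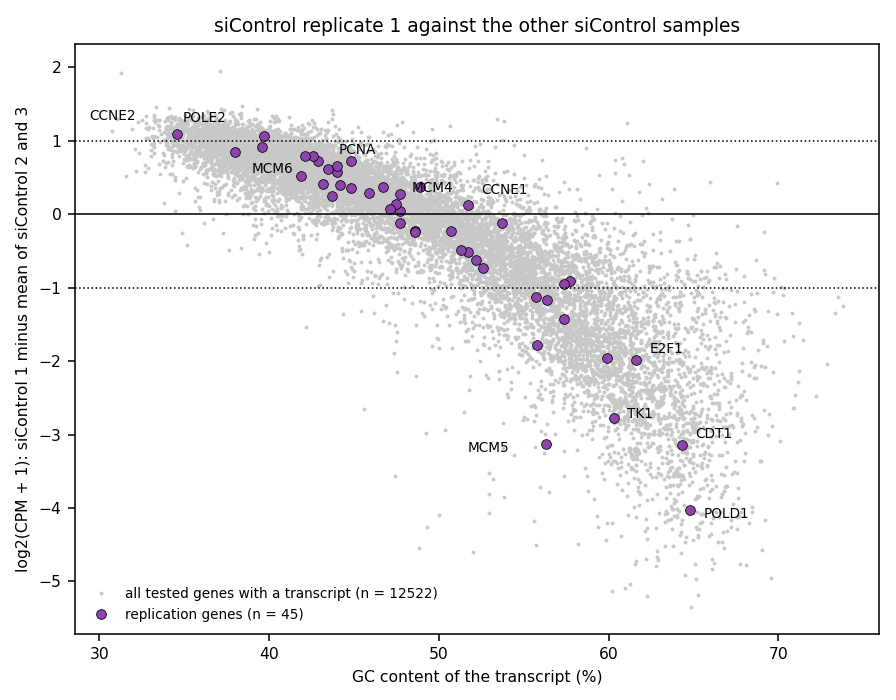
Difference in log2(CPM + 1) between siControl replicate 1 and the mean of siControl replicates 2 and 3 (y axis) against the GC content of the transcript (x axis), for the 45 replication genes (purple) and 12522 tested genes (grey). Dotted lines mark a 2-fold difference. The replication genes lie within the cloud of the other genes, from CCNE2 and POLE2 at the upper left to CDT1 and POLD1 at the lower right, and MCM5 lies near its lower edge.

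The comparisons with siControl carried this pattern. Across the 45 genes, the log2 fold change of siLATS2 against siControl correlated with GC content with r = 0.91 over all samples, and with r = -0.79 once siControl replicate 1 was left out. For siLATS1 against siControl the values were 0.79 and -0.78. The comparison of siLATS1 with siLATS2 was not free of it, with r = -0.39 both with and without siControl replicate 1. Over all tested genes r was -0.18 in that comparison, with all 9 samples. The 4 genes that reached a log2 change of 0.58 for siLATS2, which were POLD1 (0.78), MCM5 (0.72), TK1 (0.63) and E2F1 (0.60), all became negative without that sample, at -0.57, -0.34, -0.31 and -0.08. For siLATS1, CDT1 went from 0.39 to -0.68. Without siControl replicate 1, limma passed 2 genes at an unadjusted p under 0.05 for siLATS1 against siControl, MCM3 (-0.28) and MCM7 (-0.43), where 12.6% of tested genes passed, and 0 for siLATS2 (2.06%), while edgeR and DESeq2 were not run on that subset. None of the 45 passed the study's threshold there, against 5.67% and 0.536% of tested genes.

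**Figure D5:**
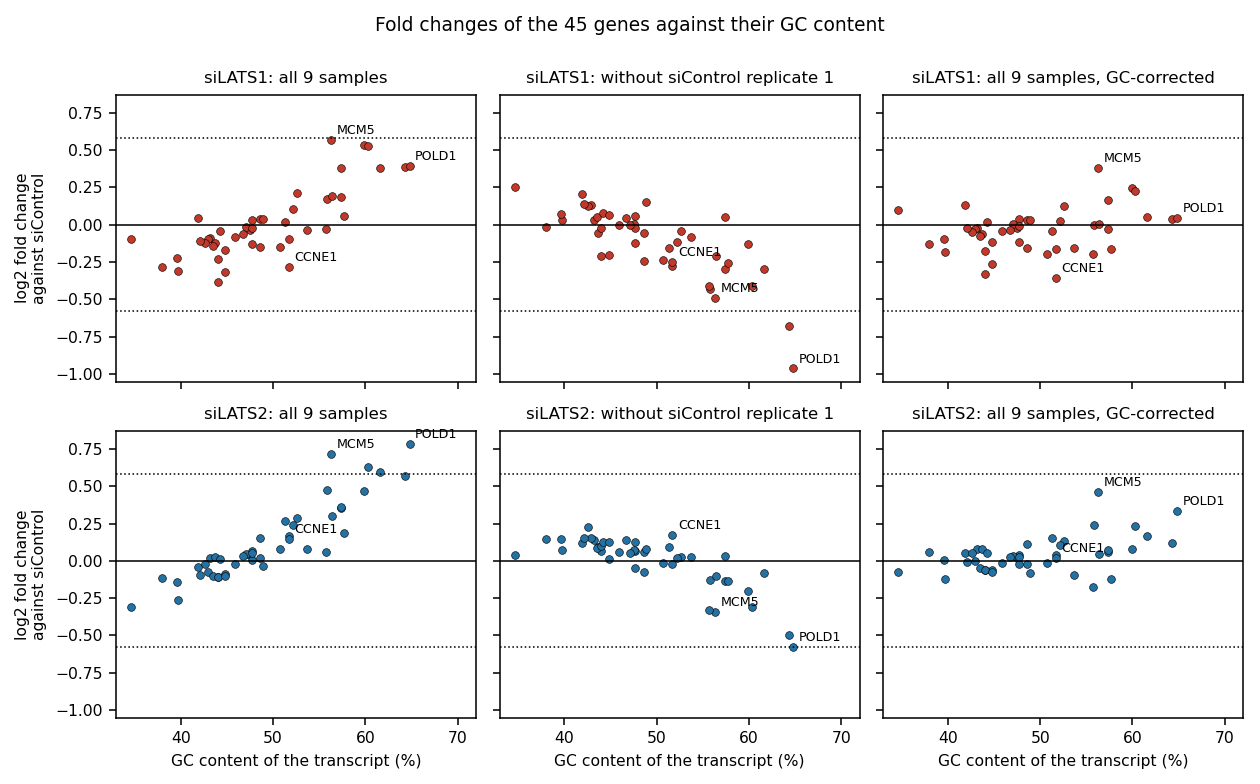
Log2 fold change against siControl (y axis) of the 45 genes by the GC content of their transcripts (x axis), for siLATS1 (top row) and siLATS2 (bottom row). The left panels use all 9 samples, the middle panels leave out siControl replicate 1, and the right panels use all 9 samples after GC correction, with dotted lines at a log2 fold change of 0.58 in each direction. The slope turns from rising to falling when siControl replicate 1 is left out, with POLD1 going from 0.78 to -0.57 for siLATS2.

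A correction for GC content was therefore added after the data were seen: in each sample a smooth curve over GC content was taken off the log2 levels. It also takes off any true difference between groups that follows GC content. The median residual SD of the 45 genes fell from 0.25 to 0.10 on the log2 scale. At an unadjusted p under 0.05 and any fold change, 6 genes then passed in limma for siLATS1 against siControl, where 17.1% of tested genes did. CLSPN (-0.33), CDC6 (-0.26), CCNE1 (-0.35), ORC1 (-0.19) and RFC4 (-0.17) were lower and LIG1 (0.24) was higher. For siLATS2 against siControl 0 genes passed, against 3.69% of tested genes. Between siLATS1 and siLATS2 7 genes passed, all lower in siLATS1 (ORC1, CDC6, MCM3, CDC45, CLSPN, RFC3 and CCNE1), against 13.6%. None had an adjusted p under 0.05 in limma, and the lowest was 0.075, for CLSPN in siLATS1 against siControl. MCM5, POLD1 and TK1 kept a 95% interval reaching beyond 0.58 for siLATS2 against siControl after the correction, as did MCM7.

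The other genes of the pathway, from lists without any of the 45, were counted in the same way. Of 27 further genes of the replication machinery, 0 passed the study's threshold in any comparison, with medians of -0.17 for siLATS1 and -0.13 for siLATS2 against siControl, where the medians of all tested genes were 0.02 and 0.03. Of 26 genes of G1/S control, 23 were tested and 1 passed, CDKN2C, an inhibitor of CDK4 and CDK6, and the medians of that list were -0.07 and -0.03. CDKN2C was at 2.20, 2.53 and 3.84 CPM in siControl, 3.79, 4.65 and 6.31 CPM in siLATS1, and 3.36, 2.88 and 3.55 CPM in siLATS2. Its log2 fold change for siLATS1 against siControl was 0.62 ± 0.22 (adjusted p = 0.656 in limma) and 0.49 without siControl replicate 1, and the lowest siLATS1 sample lay just below the highest siControl sample. None of 17 genes of S-phase chromatin and repair and none of 21 genes of G2/M and mitosis passed, with medians of -0.12 and -0.09 for siLATS1 and -0.11 and -0.05 for siLATS2 against siControl. Without siControl replicate 1 the medians of the 4 lists, in the order given, were 0.03, 0.04, 0.09 and 0.00 for siLATS1 and 0.10, 0.05, 0.12 and 0.06 for siLATS2. In that fit POLD2, a polymerase subunit, and E2F4, an E2F factor known mainly as a repressor, passed the study's threshold for siLATS1 against siControl. Their log2 fold changes were -0.69 and -0.63 (adjusted p = 0.305 and 0.293 in limma), and 5.67% of tested genes passed there. Over all 9 samples neither had an unadjusted limma p under 0.05, as scaled or after GC correction.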

How the data were processed

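Total RNA of 9 Huh7 samples (siControl, siLATS1 and siLATS2, 3 each) was isolated 48 h after transfection. The labels name a stranded total RNA kit with removal of ribosomal RNA. The study's methods also name a stranded total RNA kit, but then speak of sequencing poly-A RNA. STAR was used by the authors for unique mapping of single-end reads on hg19 (GRCh37), reads were counted over RefSeq exons, and CPM per gene were deposited with the Entrez number. Strand use in counting was not given in the sources used here. In every sample 100.0% of the deposited CPM values were whole multiples of 1 read (tolerance 0.01 reads), which gives 23547579 to 32193229 reads per sample, and intervals on fold changes come from the samples, not from counting. 1 row without an identifier was left out.

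Symbols were taken from RefSeq for 20474 of 20575 genes. Coordinates, transcript length and GC content came from the GENCODE annotation of GRCh37 (1 main transcript per gene, 12522 of the 12901 tested genes). TMM factors over all genes (0.957 to 1.057, trims of 30% and 5%) scaled the CPM, genes had to reach 1 CPM in 3 or more samples, and log2(CPM + 1) was fitted over all 9 samples with limma 3.58.1 (R 4.3.3) with a mean-variance trend and 3 contrasts. P-values were adjusted by Benjamini and Hochberg over the 12901 genes. Alternatives with edgeR 4.0.16 and DESeq2 1.42.0 used the recovered reads. GC correction took a loess curve (span 0.3) over GC content off each sample's log2 levels. The limma fit, as scaled and with GC correction, was tested on simulated data, while edgeR, DESeq2 and the other alternatives were not. The members, lists and tests were chosen with earlier results of these data known. All 45 members entered the counts, and 1 is not reported here by its own values. Values per sample were set for every member past the study's threshold, the 2 members with the lowest p in each comparison, and PCNA, MCM2, CDC6, CDT1, RRM2, TYMS, CCNE1, CCNE2, E2F1 and UHRF1, while MCM5, MCM6, POLD1 and others were added after their values were seen. Of the other lists, genes past the study's threshold were named.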

Additional observations from a re-analysis of the deposited data

Results flagged for a closer look

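CCNE1 was singled out because its 3 siLATS1 samples all lay below the siControl samples while its 3 siLATS2 samples all lay above them. The log2 fold change between siLATS1 and siLATS2 was -0.427, with group means of 16.0 ± 0.88 and 21.9 ± 0.30 CPM (SD, n = 3) and 19.7 ± 1.11 CPM in siControl. The gene was chosen for this pattern over all samples. The comparison of siLATS1 with siLATS2 had an adjusted p of 0.757 in limma and of 0.00568 in DESeq2. The exact permutation test gave 0.1, the smallest value it can give with 3 against 3 samples. That value was fixed by the separation for which the gene was chosen, so it adds nothing to it. After GC correction, siControl replicates 1, 2 and 3 were at 26.1, 17.3 and 19.4 CPM and the siLATS2 samples at 20.7, 22.0 and 20.1 CPM, so that the groups overlapped, and the siLATS1 samples at 16.5, 16.7 and 14.6 CPM stayed below all others.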

How the results depend on the processing

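Results were recomputed under 21 alternatives, of which TMM factors from the tested genes only and the GC correction were chosen after seeing the data. No member passed the study's threshold in any alternative other than sample weights. There 3 (6.67%) did for siLATS1 against siControl and 1 (2.22%) between siLATS1 and siLATS2, where 9.7% and 3.89% of all tested genes passed. That fit did not converge and gave siLATS2 replicate 1 a weight of 197.0 and siControl replicate 1 one of 0.0292. It passed 22, 30 and 29 members (48.9%, 66.7% and 64.4%) at an unadjusted p under 0.05 for siLATS1 against siControl, siLATS2 against siControl and siLATS1 against siLATS2. Of all tested genes, 55.5%, 47.2% and 71.3% passed there. At an adjusted p it passed 19, 25 and 29 members (42.2%, 55.6% and 64.4%), where 48.1%, 35.7% and 68.3% of all tested genes passed. At an unadjusted p, siLATS1 against siControl passed 3 members with edgeR, 1 with DESeq2 and 6 after GC correction, where 5.77%, 6.92% and 17.1% of all tested genes passed. Between siLATS1 and siLATS2, 7 passed after GC correction, against 13.6%. For siLATS1 against siControl, TMM factors from the tested genes only passed 3 and the fit without a mean-variance trend 1. For siLATS1 against siLATS2, 2 passed with only the 6 samples compared. These last counts, and that of the replicate block below, have no share over all genes beside them and are not read as results about the members. DESeq2 was the other fit with a member at an adjusted p under 0.05 (1, CCNE1, siLATS1 against siLATS2). Leaving out 1 sample gave 0 to 2 members at an unadjusted p for siLATS1 against siControl, 0 for siLATS2 against siControl and 0 to 2 for siLATS1 against siLATS2. Both counts of 2 were without siControl replicate 1, where 12.6% and 7.45% of all tested genes passed. CCNE1 lost its p under 0.05 without siLATS1 replicate 1, siLATS1 replicate 3 or siLATS2 replicate 1. The member median for siLATS1 against siControl ran from -0.12 to 0.05 over the alternatives, and of 2835 single fold changes 51 moved by more than the spread between replicates, 34 of them with sample weights. The cause was not tested. Same-numbered samples deviated together for number 3 (correlations of 0.83 to 0.86) but not throughout for numbers 1 and 2 (-0.87 to 0.92), so the numbers were not taken to pair samples, and the replicate block gave 1 member at an unadjusted p for siLATS1 against siControl and changed no other count. The lowest count of a member was 56 reads.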
